A study of Saccharomyces cerevisiae with 6 samples.

Results

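The 8 genes described here are KRE1, KRE5, KRE6, KRE9, KNH1, SKN1, BIG1 and ROT1, which take part in assembling the β-1,6-glucan of the cell wall in Saccharomyces cerevisiae. They were selected by gene symbol, from a list drawn up with earlier results of these data known, and all 8 were among the 5449 yeast genes measured. Each had 1 probe set of its own, and no annotated reading frame overlapped any of them in the NCBI table of assembly R64. Cells of 3 samples were exposed to zymolyase, a crude glucanase that breaks down the β-1,3-glucan of the wall. The exposure lasted 20 min at 25 °C, and the MagExtractor kit was then used to isolate RNA. The 3 control samples had no such step, and their RNA was isolated by the FastRNA Pro Red kit. Both groups carried the strain label BY4743, a diploid laboratory strain with the genotype MATa/α his3Δ1 leu2Δ0 met15Δ0 ura3Δ0 lys2Δ0, and both grew for 2 days at 25 °C in YPD, a rich medium, to which the detergent SDS had been added at 0.01%. The enzyme and the extraction kit changed together, so their effects cannot be told apart, and zymolyase is used here for both together. About 4 µg of total RNA per sample was labelled and put on 1 single-colour Affymetrix array each.

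β-1,6-glucan is a branched glucose polymer that holds the wall together: it links mannoproteins, through the remnant of their lipid anchor, to β-1,3-glucan and chitin. Its synthesis was worked out largely from mutants resistant to a killer toxin that binds this polymer, which is where the name KRE (killer toxin resistant) comes from. The gene products lie along the secretory pathway, with Kre5, Big1 and Rot1 in the endoplasmic reticulum, Kre6 and Skn1 as membrane proteins that travel further along it, and Kre9, Knh1 and Kre1 secreted or at the cell surface. Which of them forms the polymer itself is not settled.

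The signals were MAS5 intensities on a linear scale, scaled by the authors so that each array had about the same trimmed mean. Levels are not comparable between probe sets, so a difference between genes is used only for how it shifts from one group of arrays to the other. As a background, the 95th percentile of the probe sets for a second yeast species on the same array was 8.4 to 10.9 on zymolyase arrays and 8.3 to 10.4 on control arrays. The control genes printed with separate probe sets at both ends of the transcript had a log2 ratio of 3′ over 5′ signal of 2.60 ± 0.35 on zymolyase arrays and 0.85 ± 0.24 on control arrays (SD, n = 3 each, mean of 8 genes), which differ by 1.74 (SE 0.25). An exact two-sided permutation test gave p = 0.1, below which 3 arrays against 3 cannot go. The strain label did not match all of its markers. The 7 genes specific to a cells had signals of 8.2 to 133.8 on zymolyase arrays and 8.0 to 90.1 on control arrays, whereas the 4 specific to α cells had 1581 to 6754 on zymolyase arrays and 1485 to 7412 on control arrays. A diploid represses both sets. HIS3, LEU2 and URA3, deleted or partly deleted by the label, had signals of 370.9 to 2665 on zymolyase arrays and 518.0 to 2007 on control arrays. HIS3 had 438.0 to 649.3 on zymolyase arrays and 910.7 to 1173 on control arrays. LEU2 was also lower after zymolyase, at 370.9 to 423.6 against 518.0 to 836.1 in control. URA3 was higher, at 2617.5 to 2665 on zymolyase arrays and 1888 to 2007 on control arrays. None of the 7 a-specific genes was at 0. Summed over each set, the a-specific signal was 243.9 to 402.4 on zymolyase arrays and 206.6 to 255.0 on control arrays, and the α-specific signal 9813 to 16822 on zymolyase arrays and 12320 to 15105 on control arrays. The part of mating type and of RNA quality in the results below was not tested.

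Of the 8 genes, 4 were lower after zymolyase, 1 was higher and 3 did not pass the test. KRE9 fell 3.03-fold, KRE6 2.31-fold, SKN1 1.81-fold and ROT1 1.52-fold, while KRE5 rose 1.63-fold. KRE1, BIG1 and KNH1 did not pass. The test was limma's moderated test on log2 signal across all 5449 genes, with Benjamini-Hochberg adjusted p under 0.05. Over all genes 20.0% were lower and 22.5% higher by the same rule, or 42.5% in either direction, so calls were common on these arrays. Both KRE9 and KRE6 fell by at least 2-fold, which 8.55% of all genes did. The median log2 change of the 8 was -0.32, against 0.043 for all genes. The zymolyase arrays lay wholly below the control arrays for the 4 genes that fell and wholly above them for KRE5, where 25.7% and 27.2% of all genes did so. In bulk RNA, fewer cells with a transcript and less of it per cell cannot be told apart.

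**Figure D1:**
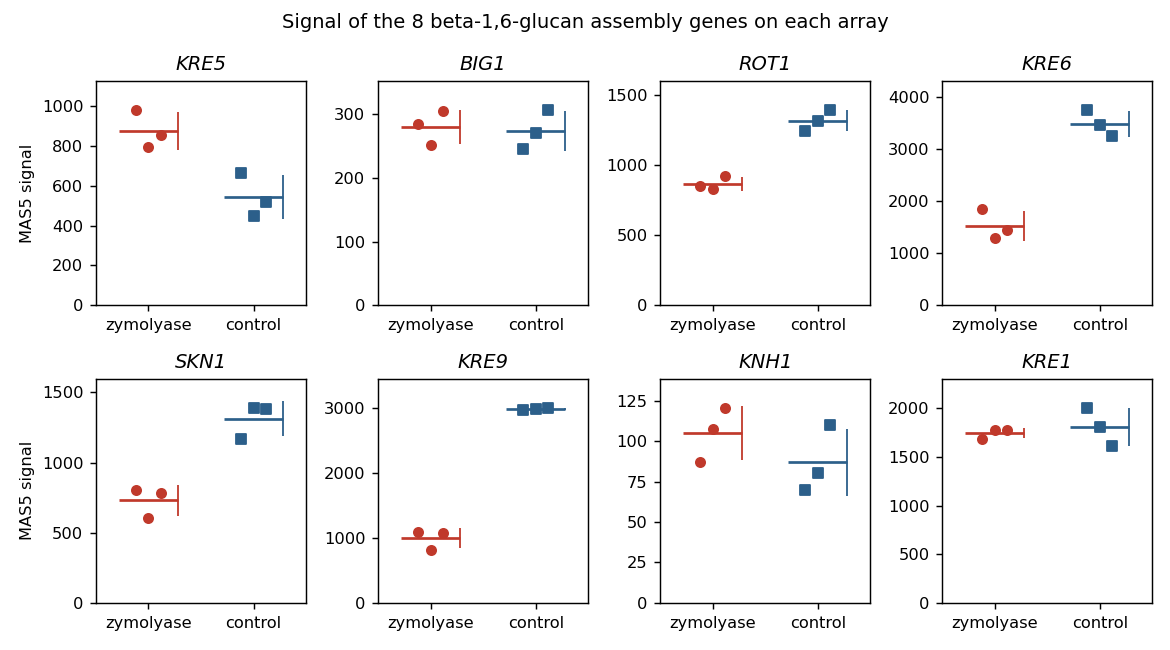
MAS5 signal (linear axis from 0, scaled separately for each gene) on the 3 zymolyase arrays (red circles) and the 3 control arrays (blue squares), with the mean as a horizontal line and the SD as a vertical one. The groups lie apart for KRE5, ROT1, KRE6, SKN1 and KRE9, and overlap for BIG1, KNH1 and KRE1.

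Among the genes that act in the endoplasmic reticulum, one rose, one fell and one did not pass. KRE5 encodes a large luminal protein related to the glucosyltransferase that monitors glycoprotein folding, and cells without it have little or no β-1,6-glucan. It had signals of 980.6, 794.3 and 854.1 on zymolyase arrays 1 to 3, against 666.2, 447.5 and 518.3 on control arrays 1 to 3. Every zymolyase array was brighter than every control array, although array 1 was the brightest of its group on both sides. KRE5 rose by 0.70 on the log2 scale (SE 0.19, limma adjusted p = 0.0183). With 1 array fewer the call was lost in 3 of 6 cases, while the log2 change stayed near its size: 0.72 without zymolyase array 3 (adjusted p = 0.0554), 0.57 without control array 2 (0.0733) and 0.68 without control array 3 (0.0629). Without both arrays numbered 1 it was 0.77 (adjusted p = 0.000159), and the adjusted p reached 0.771 over all alternatives. The call was also lost once the trend of the change with gene length was removed, as described below.

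ROT1 encodes an essential membrane protein of the endoplasmic reticulum with chaperone activity. Its signals were 848.2, 826.3 and 919.0 on zymolyase arrays and 1238, 1313 and 1388.5 on control arrays. The arrays within each group were close, with a residual SD of 0.081 on the log2 scale, and the groups lay well apart. ROT1 changed by -0.60 on the log2 scale (SE 0.13, limma adjusted p = 0.00878), and the same-numbered arrays gave -0.55, -0.67 and -0.60.

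BIG1 encodes a small membrane protein of the endoplasmic reticulum whose mutant grows very poorly. Its signals were 284.1, 251.3 and 304.8 on zymolyase arrays and 244.6, 270.8 and 306.2 on control arrays. The groups overlapped throughout. Its log2 change was 0.034 (SE 0.17, limma adjusted p = 0.888), with a 95% interval from -0.35 to 0.42, which allows a change between 0.78 and 1.34 times the control level.

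KRE6 and SKN1 encode related membrane proteins that resemble glucan-modifying enzymes, and both fell. KRE6, the member of the pair with the stronger mutant defect, had signals of 1842, 1290.5 and 1440.3 on zymolyase arrays and 3747, 3455 and 3257 on control arrays. The brightest zymolyase array was far below the dimmest control array. KRE6 changed by -1.21 on the log2 scale (SE 0.17, limma adjusted p = 0.00170).

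SKN1, isolated as a gene that in extra copies rescues a kre6 mutant, had signals of 805.1, 604.2 and 780.0 on zymolyase arrays and 1168, 1389 and 1378 on control arrays. Its groups also lay apart, with the difference smallest in the arrays numbered 1. The log2 change was -0.85 (SE 0.17, limma adjusted p = 0.00549), and the same-numbered arrays gave -0.54, -1.20 and -0.82. The log2 signal of KRE6 minus that of SKN1 on the same array was 1.06 ± 0.16 after zymolyase and 1.41 ± 0.24 in control (SD, n = 3). The log2 change of KRE6 minus that of SKN1 was -0.35 (SE 0.16, exact permutation p = 0.1 two-sided, and 0.1 adjusted over the 2 related pairs compared). No lower p is possible with these arrays, so the test cannot pass.

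Of KRE9 and KNH1, the other related pair, KRE9 fell and KNH1 did not pass. KRE9 encodes a secreted O-glycosylated protein whose loss leaves little β-1,6-glucan. Its signals were 1096, 816.1 and 1074 on zymolyase arrays and 2974, 2992 and 3006 on control arrays. The control arrays were nearly equal, and every zymolyase array was far below them. KRE9 changed by -1.60 on the log2 scale (SE 0.16, limma adjusted p = 0.00100), which placed KRE9 at rank 117 of 5449 from the largest fall.

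KNH1 encodes the homologue of Kre9, known to be induced on galactose and able to replace it in part. It was dim here, with signals of 86.9, 107.6 and 120.5 on zymolyase arrays and 70.1, 80.6 and 110.1 on control arrays. The lowest of these was 6.45 times the highest background of any array, so the probe set read above background throughout, and the groups overlapped. Its log2 change was 0.29 (SE 0.24, limma adjusted p = 0.379), with a 95% interval from -0.28 to 0.85. The log2 signal of KRE9 minus that of KNH1 was 3.25 ± 0.37 after zymolyase and 5.13 ± 0.33 in control (SD, n = 3). The changes of the pair differed by -1.89 (SE 0.29, exact permutation p = 0.1 two-sided, and 0.1 adjusted over the 2 pairs), with no overlap of the arrays and the same lower limit on p.

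KRE1 encodes a lipid-anchored protein of the cell surface that also serves as a receptor of the killer toxin. Its signals were 1685.5, 1776 and 1777 on zymolyase arrays and 2002, 1808 and 1607 on control arrays. The zymolyase values lay inside the range of the control values. Its log2 change was -0.043 (SE 0.14, limma adjusted p = 0.826), with a 95% interval from -0.36 to 0.28, or between 0.78 and 1.21 times the control level.

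**Figure D2:**
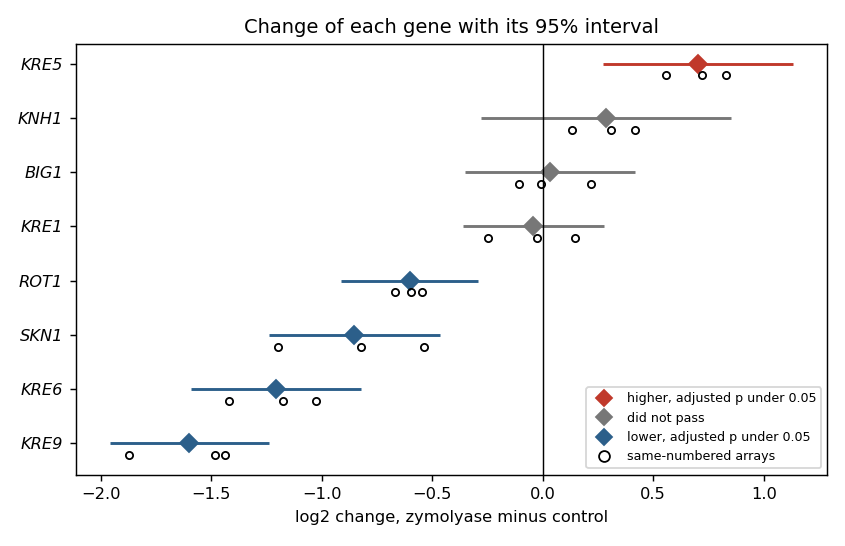
Log2 change of each gene, zymolyase minus control (diamond), with the 95% interval from limma (line) and the changes between same-numbered arrays (open circles below it). Intervals of the 4 genes that fell lie wholly below 0, that of KRE5 wholly above, and those of KNH1, BIG1 and KRE1 cross it.

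Ordered by change, the genes ran from KRE9 through KRE6, SKN1, ROT1, KRE1, BIG1 and KNH1 to KRE5. The order came from these same changes, which fixed the sign of each mean difference between neighbours. The comparisons of neighbours therefore describe the spread and do not test the order. Within-array differences set the groups apart for KRE9 and KRE6 (difference of their log2 changes -0.39, SE 0.12), for KRE6 and SKN1, and for ROT1 and KRE1 (-0.56, SE 0.15). The within-array differences of the 2 groups overlapped for the remaining neighbours, which were SKN1 with ROT1, KRE1 with BIG1, BIG1 with KNH1 and KNH1 with KRE5. Taken between same-numbered arrays, KNH1 minus KRE5 was -0.25, -0.41 and -0.59 and BIG1 minus KNH1 was -0.094, -0.52 and -0.14, each of 1 sign, whereas SKN1 minus ROT1 and KRE1 minus BIG1 took both signs. The spread of the log2 signal within groups had a median of 0.18 over the 8 genes and 0.24 over all genes. For each gene the measured gene with the nearest pattern was found by the root mean square difference of mean-centred log2 signals over the 6 arrays. These were ARR1 for KRE9 (difference 0.055), RPS14B for KRE6 (0.038), MRPL6 for SKN1 (0.053), FAU1 for ROT1 (0.025), ENV9 for KRE1 (0.044), GRS2 for BIG1 (0.034), TOS3 for KNH1 (0.073) and FOB1 for KRE5 (0.050). None of the nearest genes was another member, which says little about the members, since each was picked from all the genes tested.

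Gene length moved with the change on these arrays, with a Spearman correlation of 0.34 across the 5449 genes, which are not independent replicates and share the same 6 arrays. The 8 genes span 771 bases for ROT1 to 4098 for KRE5. KRE5 lies in the longest of 10 equal length classes, where the median log2 change was 0.60 and 53.4% of genes rose. With the length trend removed, its log2 change was 0.069 and it no longer passed (limma adjusted p = 0.771).

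KRE6 with 2163 bases and SKN1 with 2316 bases lie in the second longest class, where the median log2 change was 0.44, 41.8% of genes rose and 8.81% fell. Both fell against that trend, and with it removed their log2 changes were -1.53 and -1.21 (limma adjusted p = 0.00183 and 0.00289). KRE9, KNH1 and ROT1, of 831, 807 and 771 bases, lie in a short class with a median of -0.21, where 32.3% of genes fell. With the trend removed KRE9 changed by -1.37 (limma adjusted p = 0.00172). ROT1 changed by -0.35 and no longer passed (limma adjusted p = 0.0587), although it did with the replicate number also in the model (adjusted p = 0.0392). Over the alternatives the adjusted p of ROT1 ranged from 0.000617 to 0.0587. KNH1 changed by 0.53, and passed only with both adjustments together (adjusted p = 0.0274, in a range up to 0.694 over the alternatives). On the same zymolyase arrays the 3′ signal of the printed control genes exceeded the 5′ signal by 1.74 more than in control (log2), and the part of this in the changes was not tested.

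**Figure D3:**
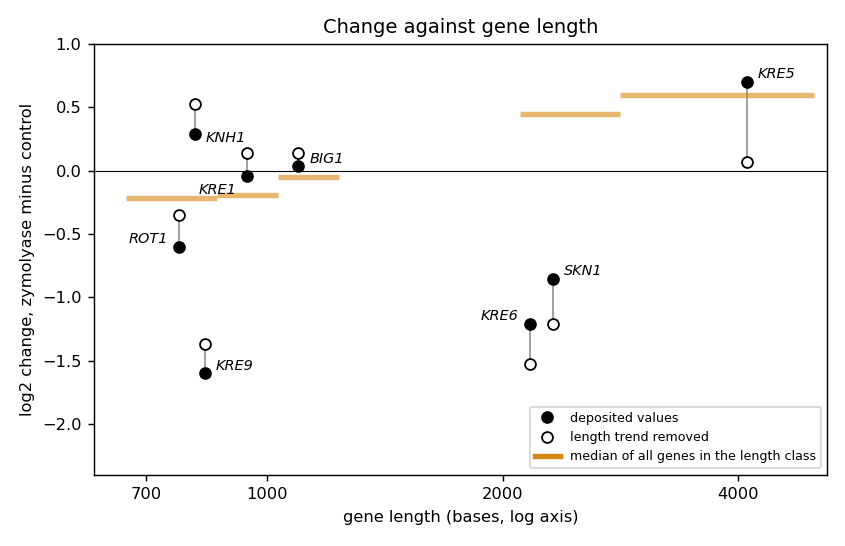
Log2 change, zymolyase minus control, of the 8 genes against gene length in bases (log axis), on the deposited values (filled) and with the length trend removed (open). Orange bars give the median change of all genes in the length classes that hold the 8 genes, the longest class being cut at the edge of the axis. KRE5 moves to near 0 when the trend is removed, and KRE6 and SKN1 move further below it.

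Genes around the pathway were examined in 4 lists of 19 genes in all, of which 5 fell, 1 rose and 13 did not pass, with a median log2 change of -0.079. Among all genes 20.0% fell and 22.5% rose. With the replicate number in the model 7 fell and 3 rose. The count that fell was 3 without control array 2 and 2 without control array 3, and the count that rose was 3 without zymolyase array 1 and 2 without control array 3. Of 5 partners in the endoplasmic reticulum, KEG1 fell and the other 4 did not pass. KEG1 encodes an essential membrane protein that binds Kre6 there. Its signals were 378.6, 305.3 and 298.8 on zymolyase arrays and 701.8, 796.0 and 725.8 on control arrays, a 2.27-fold fall with no overlap (log2 -1.18, SE 0.16, limma adjusted p = 0.00151). KRE6 and KEG1 were thus both lower on the zymolyase arrays. KEG1 is short, with 603 bases, and short genes tended to fall on these arrays. Its call held in all 16 alternatives, those with the length trend removed included (highest limma adjusted p = 0.0103). CWH41 and ROT2, for glucosidases that trim glycoproteins in the endoplasmic reticulum, had log2 changes of 0.54 (SE 0.22) and -0.0067 (SE 0.21), neither past the threshold. With the replicate number in the model CWH41 rose (adjusted p = 0.00720), as it did in each pair of same-numbered arrays.

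Of the 3 genes that supply UDP-glucose, the sugar donor of wall glucans, 2 fell. UGP1, for the pyrophosphorylase that forms it, had signals of 2665, 2517 and 2918 on zymolyase arrays and 3453.5, 4832 and 4004 on control arrays, a 1.51-fold fall (limma adjusted p = 0.0196). Its call was lost without zymolyase array 2 (0.070), control array 2 (0.0661) or control array 3 (0.0544), with 0.00329 the lowest over all alternatives. PGM1, a phosphoglucomutase, fell 1.67-fold (adjusted p = 0.0112), and PGM2, the main phosphoglucomutase, had a log2 change of -0.79 with overlapping groups (SE 0.33, adjusted p = 0.0928, and 0.0138 with the replicate number in the model). Among 5 cross-linking enzymes, CRH1, which joins chitin to glucan, fell 1.39-fold (adjusted p = 0.0275), a call lost when any single array other than zymolyase array 2 was left out (0.0511 to 0.0724, and between 0.00731 and 0.0995 over all alternatives). CRR1, its relative of the spore wall, rose 3.30-fold from a dim level, with signals of 72.1, 104.8 and 88.2 on zymolyase arrays and 31.3, 28.7 and 20.7 on control arrays (adjusted p = 0.00263). Of 6 other genes first named for killer toxin resistance, KRE29, for a subunit of a chromosome maintenance complex, fell 2.35-fold (adjusted p = 0.0154) and the other 5 did not pass. The call of KRE29 was lost without control array 3 (0.053, with 0.00206 the lowest over all alternatives).

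The 8 assembly genes were set beside 2 lists of other wall polymers and the 20.0% of all genes that fell and 22.5% that rose. Of 15 genes for β-1,3-glucan synthesis and remodelling, 6 fell and 1 rose, with a median log2 change of -0.16, and the strongest fall was that of BGL2, a glucan-modifying wall protein, at 1.93-fold. Of these 15, 3 fell without zymolyase array 2 or control array 2, and 0 rose when zymolyase array 2 or 3 or any control array was left out. Of 11 genes for chitin synthesis, 3 fell and 3 rose, with a median of 0.084, and 1 rose without zymolyase array 2 or 3. The 4 chitin genes with the smallest limma adjusted p changed in both directions. CHS2 fell 2.56-fold (adjusted p = 0.00147), PCM1 1.86-fold (0.00228) and GFA1 1.88-fold (0.00809), while SKT5 rose 2.66-fold (0.00512). The assembly genes' counts were 4 lower and 1 higher of 8, with a median of -0.32. Whether the lists differ from each other or from all genes was not tested.

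**Figure D4:**
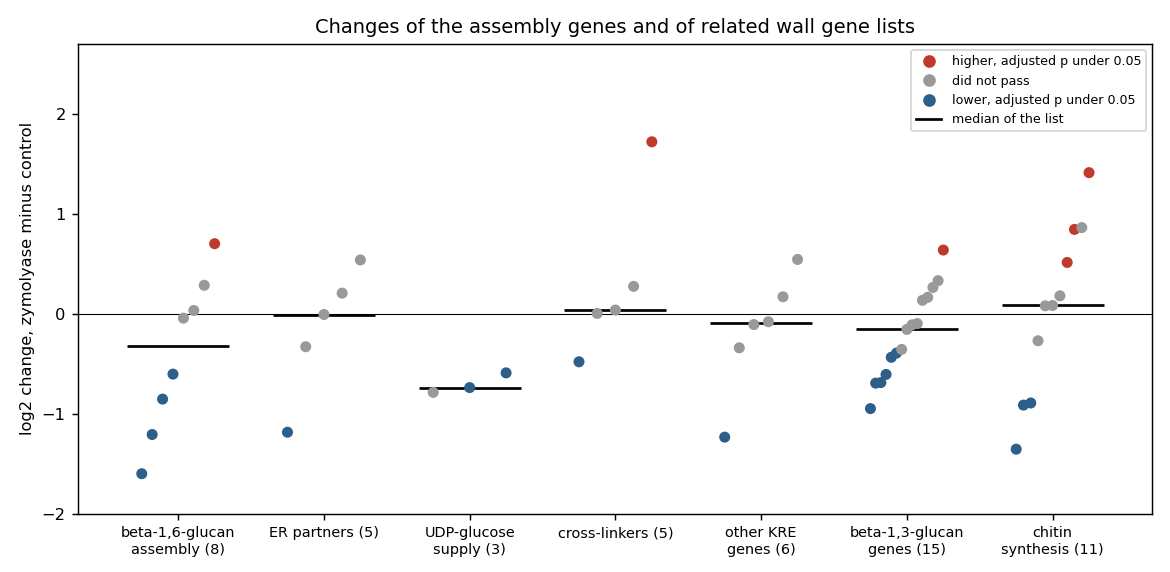
Log2 change, zymolyase minus control, of each gene in the 8 assembly genes and in the related lists (number of genes in brackets), with points coloured by the limma call and the list median as a black line. The medians are -0.32 for the assembly genes, -0.16 for the β-1,3-glucan genes and 0.084 for chitin synthesis.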

How the data were processed

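The authors deposited signal intensity values made with MAS5, per the submitters' processing notes. Which version and settings they used is not given in the sources used here, nor are detection calls. Over all 10928 probe sets the mean signal after trimming 2% at each end was 500.2 to 500.3 on every array. Zeros (7, none in a Saccharomyces cerevisiae gene) were set to 0.1 and log2 was taken.

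Probe sets were named from the platform annotation and the R64 table, and for the 47 genes with several the brightest was kept. KRE27 and CHS4 were found under EMC5 and SKT5. Changes were fitted with limma 3.58.1 in R 4.3.3 (lmFit, eBayes with an intensity trend) over 5449 genes, without a replicate block, with a threshold of 0.05. The number of arrays limits the precision. The labels do not say whether the samples of a group are separate cultures. The p-values therefore cover the spread between these arrays alone, and that spread may be technical. On data simulated from these means and spreads for 5449 genes, the fit called 60% of 100 genes changed 2-fold and 89% of 100 changed 4-fold, with 6 false calls. Recovery and false calls with a share of changed genes near the 42.5% called on these arrays were not tested. The simulated noise was independent between genes and arrays, whereas deviations on these arrays were correlated, as given below. The 6 false calls are therefore no error rate for these arrays.

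Deviations from the group means of same-numbered arrays correlated at 0.49, 0.20 and 0.41 across genes, all over 0.1. Unequal numbers passed that criterion too: zymolyase array 2 with control array 3 gave 0.20, and zymolyase array 3 with control array 2 gave 0.23. The arrays numbered 2 and 3 were thus not told apart. The criterion cannot show that equal numbers mark pairs, and no label says that they do. Results by same-numbered arrays or with the replicate number in the model rest on that unlabelled pairing.

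All 8 members are named; from each related list up to 4 genes past the threshold with the smallest adjusted p could be, other genes being given for context, and 1 nearest gene per member. The members and lists were chosen with earlier results of these data known. Alternatives were the scaling, pseudocount, filter on dim genes, variance prior, replicate block, gene length, probe sets included and arrays left out. For length, a loess curve on log2 gene length was subtracted from each array. This takes out any difference between the groups that runs with length, whatever its cause, a real change shared by long genes included. Gene lengths are those of the R64 table, with any intron.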

Additional observations from a re-analysis of the deposited data

How the results depend on the processing

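Over up to 16 alternatives each, KRE9, KRE6 and SKN1 kept their fall and their side of the threshold in all 16. The count of assembly genes that fell was 4 in all but the fit with the length trend removed, where it was 3. The count that rose was 0 with the length trend removed, and 0 to 1 with an array left out. With the replicate block it was 4 lower and 1 higher, as without it, and the share of all genes called was 58.6%, against 42.5%. With the block and the length trend removed together KNH1 and not KRE5 was the gene that rose. A block cannot change the paralogue differences (-0.35 and -1.89), and an exact two-sided sign-flip permutation test over 3 same-numbered pairs gave p = 0.25 for each, the smallest they can give.

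The median change of the 8 genes was -0.48 with each array centred on its median, which lowers every change by 0.16, -0.39 after quantile normalization, -0.60 without the dimmest 20% of genes, which drops KNH1, and -0.14 with the length trend removed, with or without the replicate block. The sign of KRE1 turned once the length trend was removed, with or without the block (0.14). With arrays left out KRE1 ranged from -0.12 to 0.0595, being positive without control array 1 (0.034) and without both arrays numbered 1. The sign of BIG1 turned with median centring (-0.13), and with arrays left out it ranged from -0.057 without both arrays numbered 1 to 0.12, being also negative without zymolyase array 3 (-0.029) or control array 1 (-0.045). Neither passed in any of these, and the cause was not tested.

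Of the 19 related genes, the number higher was 0 without the dimmest genes, 3 with the replicate block and 2 with block and length trend removed, when 10 were lower, and with arrays left out 1 to 4 were higher and 2 to 7 lower. Of the β-1,3-glucan genes 0 were higher with median centring, without the dimmest genes, with the length trend removed or with all probe sets in the fit, 2 after quantile normalization or with the replicate block, and 0 to 1 with arrays left out, when 3 to 4 were lower, against 6 with all arrays. Of the chitin genes 1 was higher with median centring and 1 to 4 with arrays left out.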
